A study of Mus musculus with 4 samples.

Results

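The genes described here make up the machinery by which islet endocrine cells dock hormone granules at the plasma membrane and release them: 35 genes chosen by name from a list of docking, priming, fusion and calcium sensing genes. All 35 were found among the 30905 genes of a single-cell count of mouse islets of Langerhans. Levels were read in beta, alpha, delta and gamma cells, which were defined by the share of a cell's UMIs that came from its hormone genes. Each of 4 groups is 1 library made with 10x Genomics 3′ chemistry: late db/db with intervention (98 days of age), late db/db (98 days), early db/db (70 days) and normal control (98 days). The db/db mouse lacks a working leptin receptor and becomes obese and diabetic. All 4 groups, the control included, carry the genotype db/db (C57BL/KsJ) in the labels. The growth protocol there names male C57BL/6 mice beside db/db mice, so which strain the control came from remains unclear. The protocol states that db/db mice were kept until hyperglycemic before mice were allotted to groups. What the intervention was, and how many mice were pooled in a library, is not given in the labels, and the matrix of early db/db carries a file label that reads like a further control. The sample labels were followed. The late db/db library with intervention is also called the intervention library below, or named by "with intervention".

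In an endocrine cell, hormone granules are carried to the membrane by Rab GTPases of the Rab3 and Rab27 families and by effectors that tie a Rab to the membrane, such as granuphilin, the product of Sytl4. Priming factors then ready the docked granule. Fusion is driven by SNARE proteins on the granule and on the plasma membrane, calcium is sensed by synaptotagmins and related proteins, and complexins hold and release the assembled complex. NSF and its adaptor take the spent complex apart. In beta cells this sequence couples calcium entry after glucose uptake to insulin release.

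The deposited matrices summed to 157952234 UMIs in the intervention library, 120934779 in late and 125498999 in early db/db, and 166034254 in normal control. The beta class held 3097 cells with intervention, 717 in late and 1417 in early db/db, and 2257 in control. A median beta cell had 42818 UMIs with intervention, 89438 in late and 58027 in early db/db, and 49932 in control. Alpha cells numbered 420 with intervention, 128 in late and 711 in early db/db, and 981 in control. There were 183 delta cells with intervention, 102 in late and 221 in early db/db, and 353 in control. Gamma cells numbered 88 with intervention, 44 in late and 107 in early db/db, and 59 in control. The 8 beta cell marker genes other than hormones were each at 10 CPM (counts per 1000000 UMIs) or more in the beta class of all 4 libraries. Their summed level was 3513.6 CPM with intervention, 1691.5 in late and 1788.6 in early db/db, and 8794 in control. Markers of acinar cells in the beta class summed to 164 CPM with intervention, 271 in late and 1558.6 in early db/db, and 139 in control. Those of T cells summed to 1.57 CPM with intervention, 30.5 in late and 1.56 in early db/db, and 0.247 in control. Larger sums came from the alpha markers other than hormones, at 21923 CPM with intervention, 13093.3 in late and 14302.7 in early db/db, and 6142.5 in control. Duct markers summed to 1629.1 CPM with intervention, 1369.1 in late and 1689.7 in early db/db, and 885 in control. In the alpha class all 8 alpha markers were at 10 CPM or more in every library, in the gamma class 4 of 5 gamma markers, and in the delta class 4 or 5 of 6 delta markers. Insulin made up 47.4% of beta cell UMIs with intervention, 43.6% in late and 48.8% in early db/db, and 64.9% in control. Free insulin RNA, read as the median insulin share of cells of no hormone class, was 5.95% with intervention, 0.791% in late and 0.318% in early db/db, and 2.67% in control. No lineage marker was asked of these cells, and they include the cells of 10 to 20% insulin counted below, so the value may overstate free RNA. In endothelial cells, defined by markers, insulin made up 4.61% of UMIs with intervention, 0.528% in late and 0.381% in early db/db, and 1.74% in control. The part of these markers, of depth and of free RNA as causes of the results below was not tested. Depth limits and the subtraction of free RNA were among the alternative settings described at the end. Beta cells near the cut, with 20 to 30% insulin, numbered 239 with intervention, 97 in late and 92 in early db/db, and 3 in control. Cells just below it, with 10 to 20%, numbered 104 with intervention, 48 in late and 50 in early db/db, and 5 in control. Libraries shared between 8 and 21 cell barcodes per pair.

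The 250 bases before the RefSeq start are shown for 4 genes that were at least 2-fold apart between db/db and control beta cells in the results below: Sytl4 and Cadps, which were lower, and Ptprn and Rab3b, which were higher. They are printed 5′ to 3′ on the strand of the gene, on build GRCm38.p6. Capitals mark matches, on either strand, to TGACG (the core of the cAMP response element), TGACGTCA (the full element, which contains the core), GGGCGG (the GC box), TGCTGA (part of the element bound by MAF factors) or CAGATG (an E-box bound by NEUROD1). Matches may overlap each other. The Ptprn window lies inside the gene as annotated in GENCODE, which reaches to 75264502. The last bases of the Rab3b window also lie inside its annotated gene, which starts at 108879063.
Sytl4, chrX:133981813-133982062, minus strand: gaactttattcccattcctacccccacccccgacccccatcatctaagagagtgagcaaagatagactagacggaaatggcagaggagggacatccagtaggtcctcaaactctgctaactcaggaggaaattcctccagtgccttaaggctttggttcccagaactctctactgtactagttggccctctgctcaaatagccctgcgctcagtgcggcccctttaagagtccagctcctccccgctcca
Cadps, chr14:12823080-12823329, minus strand: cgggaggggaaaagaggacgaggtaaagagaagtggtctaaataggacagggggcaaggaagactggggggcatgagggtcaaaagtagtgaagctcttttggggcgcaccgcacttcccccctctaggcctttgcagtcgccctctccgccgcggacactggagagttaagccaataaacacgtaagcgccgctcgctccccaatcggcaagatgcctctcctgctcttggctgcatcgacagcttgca
Ptprn, chr1:75264209-75264458, minus strand: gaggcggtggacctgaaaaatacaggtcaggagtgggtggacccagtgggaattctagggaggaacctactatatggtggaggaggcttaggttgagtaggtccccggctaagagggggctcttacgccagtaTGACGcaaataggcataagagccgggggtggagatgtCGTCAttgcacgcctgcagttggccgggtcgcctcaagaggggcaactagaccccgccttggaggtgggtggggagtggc
Rab3b, chr4:108878820-108879069, plus strand: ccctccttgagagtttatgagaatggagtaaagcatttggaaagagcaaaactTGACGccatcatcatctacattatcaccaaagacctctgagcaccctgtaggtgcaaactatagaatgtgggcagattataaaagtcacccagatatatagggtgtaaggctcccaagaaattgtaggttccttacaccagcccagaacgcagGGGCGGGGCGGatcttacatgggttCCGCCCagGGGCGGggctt
None of these letters occurred in the Sytl4 and Cadps windows, while the Ptprn window held 2 matches to TGACG and the Rab3b window held 1 match to TGACG and 4 to GGGCGG. RefSeq windows were matched for 24 of the 35 genes. TGACG was found in 41.7% of these 24 windows and in 17.9% of 27025 windows of all genes, GGGCGG in 62.5% and 32.9%, TGACGTCA in 4.17% and 1.62%, TGCTGA in 12.5% and 15.8%, and CAGATG in 0% and 14.5%. These matches describe the letters only.

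In beta cells, Sytl4 stood far below the control in all 3 db/db libraries and was the only one of the 30 measured genes at least 2-fold higher in the intervention library than in late db/db. The priming factor Cadps was also at least 2-fold lower than control in all 3 db/db libraries. The granule membrane protein Ptprn, the Rab GTPase Rab3b and the synaptotagmin Syt5 were higher than control in db/db. The SNAREs Snap25, Vamp2 and Vamp8 and the calcium sensor Syt4 differed from control by at most 1.32-fold in each db/db library. With all UMIs as denominator their log2 ratios reached up to 0.64 (Syt4 in late db/db). With the main denominator, not all SNAREs were this close to control. The log2 ratio of Stx4a was -0.88 with intervention, -0.77 in late and -0.76 in early db/db. That of Vamp3 was -1.02 with intervention, -1.10 in late and -0.79 in early db/db. With all UMIs as denominator, Stx4a was at -0.46 with intervention, -0.16 in late and -0.35 in early db/db. Vamp3 was then at -0.60 with intervention, -0.50 in late and -0.38 in early db/db. Which of these genes lay closest to control thus depended on the denominator. Levels are CPM over the UMIs outside mitochondrial and 7 hormone genes. A gene counted as measured where the higher library reached 10 CPM and both together held 50 UMIs, which 30 of the 35 genes met in every beta cell comparison. Rab26, Stxbp5l, Stx1a, Cplx1 and Doc2b did not. As each group is 1 library, differences could not be set against replicate spread and none was tested. Intervals are 95% and cover counting error only.

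In late db/db against normal control, 3 of the 30 measured genes were at least 2-fold higher (Rab3b, Ptprn and Syt5) and 4 at least 2-fold lower (Sytl4, Cadps, Vamp3 and Cplx2). Among all 9398 genes measured, 4.19% were higher and 12.9% lower by that rule. In early db/db against normal control 2 genes were higher (Rab3b and Syt5; 4.9% of all genes) and 8 lower (Sytl4, Rph3al, Rab37, Rims2, Cadps, Syt7, Syt14 and Cplx2; 18.9% of all genes). No gene of the 30 was 2-fold apart between late and early db/db, where 0.35% of all genes were higher and 0.595% lower. In the intervention library against late db/db 1 gene was higher, Sytl4, and none was lower, with 1.23% and 0.706% of all genes. Against normal control the intervention library had 2 genes higher (Rab3b and Ptprn; 4.13% of all genes) and 4 lower (Sytl4, Cadps, Stxbp3 and Vamp3; 8.97% of all genes). The median log2 ratio over the measured genes was -0.49 with intervention, -0.28 in late and -0.26 in early db/db against control. Over all genes it was -0.37 with intervention, -0.39 in late and -0.38 in early db/db. It was 0.04 in late against early db/db and 0.01 in the intervention library against late db/db, beside -0.01 and 0.03 over all genes. By role, the median in late db/db against control was 0.15 over 9 docking genes, -0.75 over 5 priming genes, -0.26 over 8 SNARE genes, -0.59 over 6 genes grouped under calcium sensing and -0.23 over the 2 disassembly genes. The group under calcium sensing includes Syt13 and Syt14, which do not bind calcium, and the complexin Cplx2. These comparisons share the control or the late db/db library, so their values are not independent of each other.

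The ratios against control depended on the denominator. Each change of denominator moved all genes of a comparison by the same amount. All UMIs as denominator raised every log2 ratio to control by 0.42 with intervention, 0.61 in late and 0.41 in early db/db, and TMM scaling (edgeR) raised it by 0.28 with intervention, 0.32 in late and 0.35 in early db/db. In the intervention library against late db/db the shift was -0.18 with all UMIs and -0.04 with TMM. Hormone and mitochondrial genes held 63.4% of beta cell UMIs with intervention, 58.4% in late and 63.7% in early db/db, and 72.7% in control. With all UMIs as denominator the median of all genes in late db/db against control was 0.33, and with TMM -0.05. Of the genes called in that comparison, 24.5% were higher with the main denominator, 81.9% with all UMIs and 54.3% with TMM. The same shares were 20.6%, 63.7% and 51.3% in early db/db, and 31.5%, 77.3% and 62.3% in the intervention library against control. In the intervention library against late db/db they were 63.5%, 32.6% and 57.6%. Relative to the median of all genes, late db/db against control gave -3.12 for Sytl4, -1.28 for Cadps, -0.77 for Cplx2, 1.72 for Ptprn, 1.93 for Rab3b and 1.57 for Syt5 on the log2 scale.

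**Figure D1:**
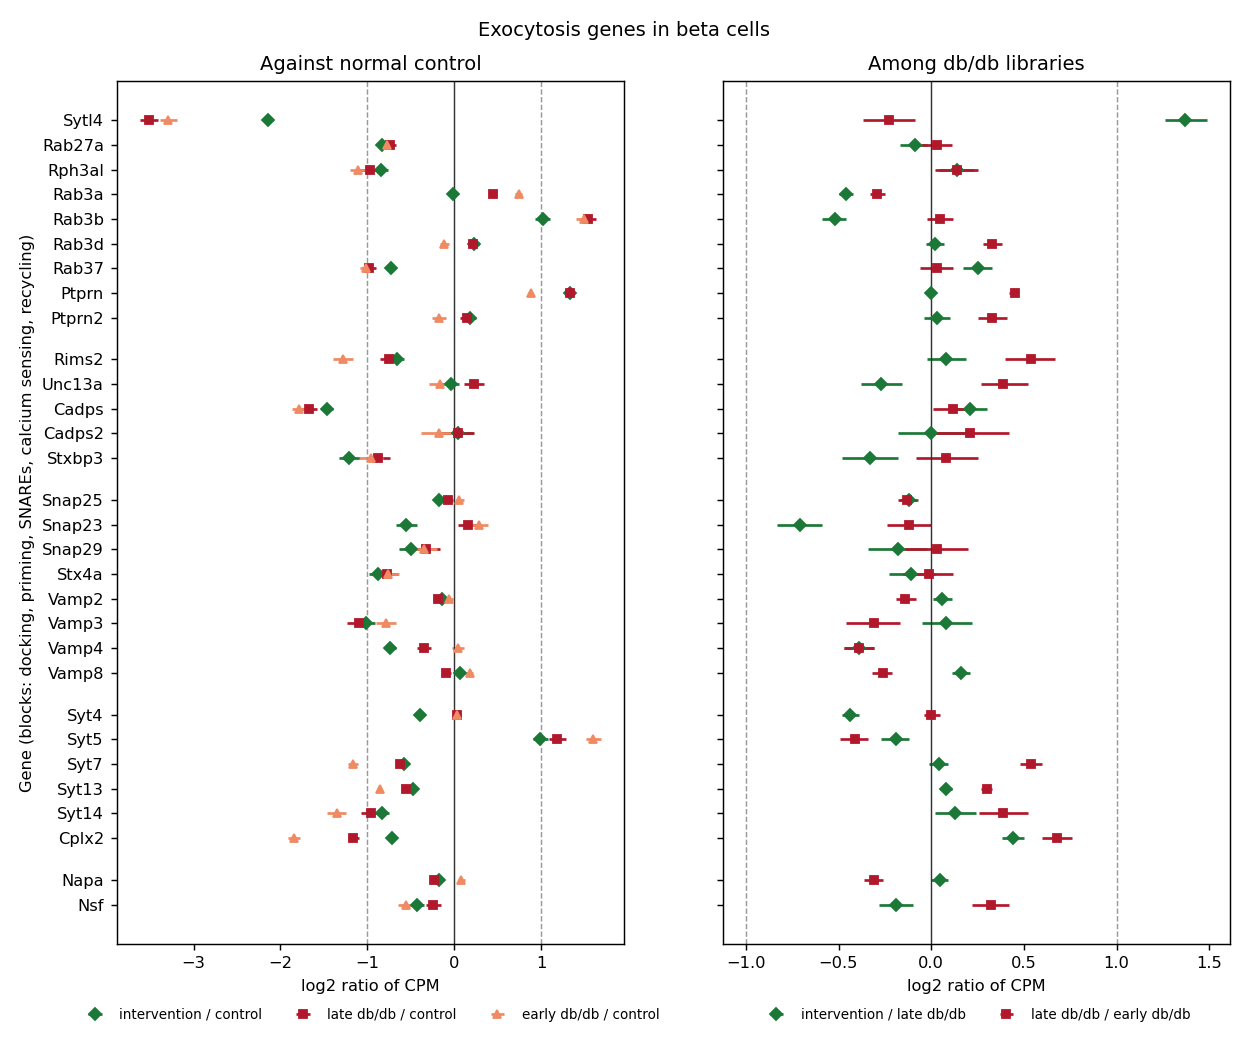
Log2 ratio of CPM in beta cells for the 30 measured genes (rows, grouped by role), with bars for the 95% counting interval. Left: the intervention library (green diamonds), late db/db (red squares) and early db/db (orange triangles) over normal control; right: intervention over late db/db and late over early db/db; dashed lines mark 2-fold, and Sytl4 is the only gene past a dashed line in the right panel.

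Sytl4 encodes granuphilin, a Rab27a effector of insulin granules that binds the plasma membrane SNARE machinery and holds granules docked. The gene (ENSMUSG00000031255) lies on the minus strand of chromosome X, from 133936385 to 133981812 in GENCODE M21 on GRCm38. Beta cells had 74.3 CPM in the intervention library (3458 UMIs), 28.7 CPM in late db/db (738 UMIs), 33.6 CPM in early db/db (967 UMIs) and 328 CPM in normal control (10631 UMIs). The 3 db/db libraries all lay far below the control, and the intervention library lay above the other two. Sytl4 was 4.41-fold lower in the intervention library than in control (log2 ratio -2.14, interval -2.20 to -2.09), 11.4-fold lower in late db/db (-3.51, -3.62 to -3.41) and 9.77-fold lower in early db/db (-3.29, -3.38 to -3.19). The intervention library was 2.59-fold above late db/db (1.37, 1.26 to 1.49), and late over early db/db gave a log2 ratio of -0.23 (-0.37 to -0.09). The late over early ratio ran from -0.26 to 0.08 over the alternative settings, so its sign is not settled. The other 4 Sytl4 ratios stayed past 2-fold under every alternative tried.

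After thinning each cell to 5000 UMIs outside mitochondrial and hormone genes, a Sytl4 UMI was seen in 29.0% of 2674 beta cells of the intervention library, 13.2% of 707 in late db/db, 16% of 1337 in early db/db and 77.3% of 2073 in normal control. The exact (Clopper-Pearson) intervals were 27.3 to 30.8% with intervention, 10.7 to 15.9% in late and 14.1 to 18.1% in early db/db, and 75.4 to 79.1% in control. Thinning left out 423 shallower beta cells with intervention, 10 in late and 80 in early db/db, and 184 in control. Unthinned, the shares were 57.2% with intervention, 57.0% in late and 44.0% in early db/db, and 92.0% in control. The median beta cell held 15273 such UMIs with intervention, 36790 in late and 20684 in early db/db, and 14065 in control, so late db/db was read at the greatest depth. Endothelial cells, which have no hormone granules, gave 3.12% of 64 thinned cells with intervention, 0% of 65 in late db/db (upper limit 5.52%), 1.02% of 98 in early db/db and 3.14% of 159 in control. Their medians were 6706.5 such UMIs with intervention, 10479 in late and 7922.5 in early db/db, and 8984 in control. All 4 beta cell shares stood above these endothelial shares. Whether endothelial cells express Sytl4 themselves was not tested.

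Outside beta cells Sytl4 was low, at or under 11.2 CPM in the classes that follow. Alpha cells had 1.56 CPM in the intervention library, 0 UMIs in late db/db (3 UMIs would be 1.38 CPM), 0.932 CPM in early db/db and 3.64 CPM in normal control. Delta cells had 3.07 CPM with intervention, 1.38 in late and 0.609 in early db/db, and 6.32 in control. Gamma cells had 11.2 CPM with intervention, 6.5 in late and 5.24 in early db/db, and 4.14 in control, on 3 to 7 UMIs. Endothelial cells had 3.34 CPM with intervention, 0.903 in late and 0.73 in early db/db, and 7.53 in control. Gamma cells thus lay above endothelial cells in each db/db library and below them in control, on few UMIs. The thinned shares of alpha cells were 0.536% with intervention, 0% in late and 0.443% in early db/db, and 2.01% in control. Those of delta cells were 1.23% with intervention, 0% in late and 0.485% in early db/db, and 2.97% in control. Both were at or below those of endothelial cells, so no difference between libraries is read from them.

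**Figure D2:**
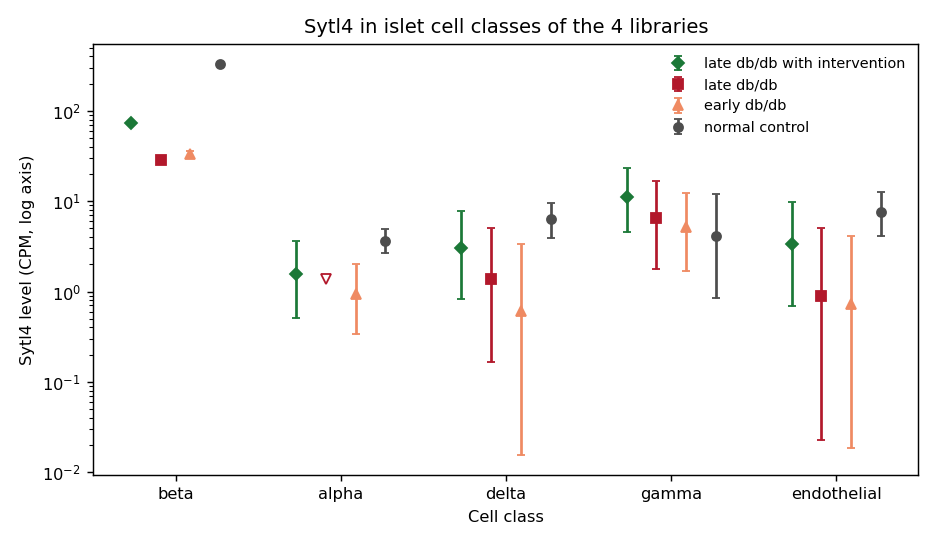
Sytl4 level (CPM, log axis) in 5 cell classes of the intervention (green diamonds), late db/db (red squares), early db/db (orange triangles) and normal control (grey circles) libraries, with exact Poisson 95% intervals; the open triangle marks the level of 3 UMIs where none was counted. Beta cells run from 28.7 CPM in late db/db to 328 CPM in control, and the other classes stay at or under 11.2 CPM.

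Among the Rab GTPases of the granule, Rab27a, the partner of granuphilin, had 88.4 CPM in beta cells of the intervention library, 94.3 in late and 92.3 in early db/db, and 157 in normal control. All 3 db/db libraries were close to each other and under 2-fold below control, with log2 ratios of -0.83 with intervention, -0.74 in late and -0.77 in early db/db. With all UMIs as denominator the Rab27a ratios were -0.41 with intervention, -0.13 in late and -0.36 in early db/db. Rab3a, a Rab of synaptic vesicles and granules, had 258 CPM with intervention, 356 in late and 434 in early db/db, and 260 in control, so that late db/db (0.45) and early db/db (0.74) stood above control and the intervention library was level with it (-0.01, -0.05 to 0.03). With all UMIs as denominator the Rab3a ratios were 0.41 with intervention, 1.06 in late and 1.15 in early db/db, and early db/db gave 1.09 with TMM, so Rab3a passed 2-fold in late and early db/db under all UMIs and in early db/db under TMM. Rab3b, a close relative, had 95.2 CPM with intervention, 137 in late and 132 in early db/db, and 47.1 in control. Its log2 ratio to control was 1.02 (0.93 to 1.10) in the intervention library, 1.54 (1.45 to 1.63) in late db/db and 1.49 (1.40 to 1.58) in early db/db. Across the alternatives the Rab3b ratios ran over 0.44 to 1.44 with intervention, 0.90 to 2.14 in late and 0.96 to 1.90 in early db/db, and all were under 2-fold in beta cells of 40 to 60% insulin. Rab3d, a Rab3 member of secretory granules, had 226 CPM with intervention, 223 in late and 178 in early db/db, and 193 in control, at most 1.18-fold from control. Counted over all UMIs, late db/db gave a log2 ratio of 0.82.

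Rab37, another granule Rab, had 85.5 CPM in the intervention library, 71.9 in late and 70.5 in early db/db, and 142 in normal control. Its log2 ratios to control were -0.73 with intervention, -0.98 in late and -1.01 in early db/db, on both sides of 2-fold, and the early db/db ratio was -0.60 with all UMIs as denominator. Rph3al, a Rab3 and Rab27 effector also called Noc2, had 54.6 CPM with intervention, 49.7 in late and 45.2 in early db/db, and 97.5 in control, with log2 ratios to control of -0.84 with intervention, -0.97 in late and -1.11 in early db/db. The early db/db ratio was -0.70 with all UMIs as denominator. For both genes the 3 db/db libraries lay together, below the control. Rab26, a Rab found on secretory granules of exocrine cells, stayed under 10 CPM in all 4 libraries (7.05 with intervention, 5.68 in late and 7.5 in early db/db, and 3.15 in control).

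Ptprn and Ptprn2 encode the granule membrane proteins IA-2 and phogrin, which are autoantigens in type 1 diabetes and help maintain granule number. Ptprn had 948 CPM in beta cells of the intervention library and 948 CPM in late db/db, beside 696 CPM in early db/db and 378 CPM in normal control. The ratio to control was 2.51-fold in both the intervention library and late db/db (log2 1.33, 1.30 to 1.36 in each) and 1.84-fold in early db/db (0.88, 0.85 to 0.91). Late db/db was 1.36-fold above early db/db (0.45, 0.42 to 0.47). The log2 ratio of the intervention library to late db/db had a counting interval of -0.02 to 0.02 and ran from -0.19 to 0.10 over the settings. The ratios of the intervention library and of late db/db to control stayed past 2-fold under every alternative. Ptprn2 had 108 CPM with intervention, 106 in late and 84.1 in early db/db, and 95.2 in control, at most 1.13-fold from control. Counted over all UMIs, late db/db gave a log2 ratio of 0.75.

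Of the priming factors, Cadps, which encodes the calcium dependent activator CAPS1 of dense core granules, had 58.3 CPM in the intervention library, 50.5 in late and 46.5 in early db/db, and 161 in normal control. The distance below control was 2.75-fold with intervention (log2 -1.46, -1.53 to -1.39), 3.18-fold in late db/db (-1.67, -1.76 to -1.58) and 3.45-fold in early db/db (-1.79, -1.87 to -1.70), past 2-fold under every alternative. The intervention library was 1.15-fold above late db/db, a ratio whose sign differed between settings (log2 -0.18 to 0.39). The Cadps paralog Cadps2 had 14.9 CPM with intervention, 15.0 in late and 12.9 in early db/db, and 14.6 in control. Its log2 ratio to control ran over the settings from -0.14 to 0.46 with intervention, -0.01 to 0.64 in late and -0.31 to 0.23 in early db/db. A thinned UMI of Cadps was seen in 25.9% of beta cells with intervention, 21.9% in late and 19.8% in early db/db, and 52.1% in control. In endothelial cells the shares were 3.12% with intervention, 0% in late and 0% in early db/db, and 1.26% in control.

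Rims2, an active zone scaffold that binds Rab3 and Unc13 proteins, had 44.2 CPM in the intervention library, 41.7 in late and 28.7 in early db/db, and 70.0 in normal control. It was 2.44-fold below control in early db/db (log2 -1.28, -1.40 to -1.17; -0.87 with all UMIs as denominator), and the log2 ratio was -0.66 with intervention and -0.75 in late db/db. Unc13a, the priming factor that opens syntaxin, had 38.8 CPM with intervention, 46.7 in late and 35.5 in early db/db, and 39.9 in control, and was at most 1.17-fold from control (log2 0.83 in late db/db with all UMIs as denominator). Stxbp3, a binding partner of the syntaxin Stx4a, had 18.4 CPM with intervention, 23.1 in late and 21.8 in early db/db, and 42.5 in control, so the db/db libraries lay together below control with log2 ratios of -1.21 with intervention, -0.88 in late and -0.96 in early db/db. The ratio with intervention was -0.79 with all UMIs as denominator.

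Stxbp5l, the gene of tomosyn-2, which restrains SNARE assembly, was sparse in beta cells and did not reach the minimum level. Beta cells held 10 UMIs in the intervention library, 4 in late and 6 in early db/db, and 198 in normal control. That is 0.215 CPM with intervention, 0.156 in late and 0.208 in early db/db, and 6.11 in control. The log2 ratios to control were -4.83 with intervention (-5.91 to -3.92), -5.29 in late db/db (-7.18 to -3.92) and -4.87 in early db/db (-6.34 to -3.73). After thinning, a UMI was seen in 0.0748% of beta cells with intervention, 0% in late and 0.0748% in early db/db, and 3.28% in control. No thinned endothelial cell of any library held one. Stxbp5l in delta cells had 114 CPM with intervention, 105 in late and 104 in early db/db, and 125 in control. Somatostatin made up 0.0116% of beta class UMIs with intervention, 0.00645% in late and 0.013% in early db/db, and 0.0186% in control. In the delta class it made up 19.8% with intervention, 17.9% in late and 19.5% in early db/db, and 16.8% in control.

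Of the 8 SNARE genes measured, 1 was at least 2-fold from control in the intervention library and in late db/db, Vamp3, and none in early db/db. Below control were 7 of the 8 in the intervention library, 7 in late and 4 in early db/db, with median log2 ratios of -0.53 with intervention, -0.26 in late and -0.01 in early db/db. Over all genes the median was -0.37 with intervention, -0.39 in late and -0.38 in early db/db. Snap25, the plasma membrane SNARE of regulated secretion, had 200 CPM in the intervention library, 217 in late and 237 in early db/db, and 227 in normal control. Vamp2, its main granule partner, had 217 CPM with intervention, 208 in late and 229 in early db/db, and 238 in control. Vamp8, a granule SNARE also used in exocrine and immune cells, had 230.0 CPM with intervention, 206 in late and 247 in early db/db, and 219 in control. Those 3 genes therefore differed by at most 1.14-fold between any db/db library and control, while with all UMIs as denominator late db/db was above control by log2 0.54 for Snap25, 0.41 for Vamp2 and 0.52 for Vamp8. Vamp3, the widely expressed partner on recycling endosomes, had 28.2 CPM with intervention, 26.6 in late and 33.1 in early db/db, and 57.1 in control, 2.02-fold below control in the intervention library (log2 -1.02, -1.12 to -0.91) and 2.14-fold in late db/db (-1.10, -1.23 to -0.97). With all UMIs as denominator these Vamp3 ratios were -0.60 with intervention and -0.50 in late db/db. Vamp3 overlaps Camta1 on the same strand within its last 2000 bases, so their reads may not be separable.

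Stx4a, a plasma membrane syntaxin of granule fusion, had 30.4 CPM in the intervention library, 32.7 in late and 33.0 in early db/db, and 55.8 in normal control. Vamp4, a SNARE of the trans-Golgi network and immature granules, had 63.2 CPM with intervention, 83 in late and 109 in early db/db, and 106 in control, so that the intervention library was lowest and early db/db level with control. The sign of late db/db against control for Vamp4 depended on the denominator (-0.35, and 0.25 with all UMIs). Snap23, a widely expressed relative of Snap25, had 25.9 CPM with intervention, 42.4 in late and 46.1 in early db/db, and 38.0 in control. It was 1.63-fold lower in the intervention library than in late db/db (-0.71, -0.83 to -0.59), the lowest ratio among the 30 measured genes in that comparison. Snap29 ran from 18.3 to 25.9 CPM. Stx1a, the syntaxin of fast secretion, was under the minimum, at 3.68 CPM with intervention, 3.66 in late and 3.2 in early db/db, and 6.61 in control.

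Among the calcium sensors, Syt7, a slow, high affinity synaptotagmin of beta cell granules, had 202 CPM in the intervention library, 197 in late and 135 in early db/db, and 303 in normal control. Early db/db was lowest, 2.24-fold below control (log2 -1.17, -1.22 to -1.11), a ratio that was -0.76 with all UMIs as denominator. The log2 ratio was -0.58 with intervention and -0.62 in late db/db. Over the settings these 2 ratios reached up to -0.16 with intervention and -0.02, level with control, in late db/db. Syt5, a synaptotagmin of dense core granules, was above control instead. It had 81.2 CPM with intervention, 92.7 in late and 124 in early db/db, and 40.8 in control. It was 2.27-fold above control in late db/db (1.18, 1.09 to 1.28) and 3.03-fold in early db/db (1.60, 1.51 to 1.69), both past 2-fold under every alternative, and 1.99-fold in the intervention library (0.99, 0.90 to 1.08).

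Syt13 and Syt14 are synaptotagmins that do not bind calcium. Syt13 had 615 CPM in the intervention library, 581 in late and 472 in early db/db, and 854 in normal control. Syt14 had 43.3 CPM with intervention, 39.6 in late and 30.2 in early db/db, and 77.0 in control, and was 2.55-fold below control in early db/db (log2 -1.35, -1.46 to -1.24; -0.94 with all UMIs as denominator). Both were lowest in early db/db and highest in control, except that with all UMIs as denominator Syt13 in late db/db was level with control (0.05). Syt4, which modulates the calcium sensitivity of beta cell granules, had 228 CPM with intervention, 308 in late and 308 in early db/db, and 301 in control. The log2 ratio of Syt4 to control was -0.40 with intervention, 0.03 in late and 0.03 in early db/db. With all UMIs as denominator it was 0.02 with intervention, 0.64 in late and 0.44 in early db/db. The intervention library was 1.35-fold below late db/db.

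Cplx2, the complexin of islet cells, had 169 CPM in the intervention library, 125 in late and 77.7 in early db/db, and 278 in normal control. The 4 libraries were spread apart, with early db/db lowest. Cplx2 was below control by 1.65-fold with intervention (log2 -0.72, -0.76 to -0.67), 2.23-fold in late db/db (-1.16, -1.22 to -1.10) and 3.58-fold in early db/db (-1.84, -1.91 to -1.77). Only the early db/db ratio stayed past 2-fold under every alternative, and the late db/db ratio was -0.55 with all UMIs as denominator. Late db/db was 1.61-fold above early db/db (0.68, 0.60 to 0.76), the highest ratio of the 30 measured genes in that comparison, and the intervention library 1.35-fold above late db/db (0.44, 0.38 to 0.50; -0.04 to 0.48 over the settings). Its paralog Cplx1, the neuronal complexin, was at 2 UMIs with intervention, 0 in late and 0 in early db/db, and 2 in control. Doc2b, a soluble calcium sensor, was at 1.33 CPM with intervention, 1.91 in late and 1.11 in early db/db, and 2.32 in control.

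The disassembly genes were under 2-fold from control in every library. Napa, the adaptor of NSF, had 246 CPM in the intervention library, 238 in late and 295 in early db/db, and 279 in normal control. Nsf, the ATPase that takes the SNARE complex apart, had 55.3 CPM with intervention, 63.1 in late and 50.6 in early db/db, and 74.5 in control. The largest ratio to control of either gene was 1.47-fold, for Nsf in early db/db. With all UMIs as denominator Napa was above control in all 3 db/db libraries, by log2 0.24 with intervention, 0.38 in late and 0.49 in early db/db. The Nsf ratios were then -0.01 with intervention, 0.37 in late and -0.15 in early db/db, so the sign in late db/db depended on the denominator.

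In the other endocrine classes few of these genes were 2-fold apart. Alpha cells had none of 31 measured genes past 2-fold in late db/db against control (1.64% of all genes higher, 2.16% lower). In early db/db Syt5 was higher (1.88% of all genes) and Cplx2 lower (3.21%), and in the intervention library against control Rab3b was higher by log2 1.25 (0.96 to 1.54; 1.92% of all genes; none was lower, 1.24%). None was past 2-fold in the intervention library against late db/db (1.8% and 0.91%), and Unc13a was higher in late than in early db/db by 1.01 (0.62 to 1.39; 1.14%; none was lower, 0.87%). In that last comparison 1 of the 6 priming genes, the role of Unc13a, reached 10 CPM in 1 library only. The Unc13a call in alpha cells may therefore rest on a level under the minimum in early db/db. Delta cells had none past 2-fold in late db/db against control (1.67% and 2.54%), and the same held for the intervention library against late db/db (0.802% and 1.23%) and against control (1.37% and 2.21%). Syt7 was lower in early db/db against control in delta cells (4.15% of all genes; none was higher, 1.79%), and higher in late than in early db/db by log2 1.20 (0.90 to 1.51; 0.875%; none was lower, 1.03%). Acinar markers in the delta class summed to 573 CPM with intervention, 1088.8 in late and 5275 in early db/db, and 270 in control, and their part in the Syt7 difference was not tested.

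Gamma cells, of which 44 to 107 were read per library, had wider intervals. Rab3b was higher than control in late db/db (1.33% of all genes; none was lower, 1.35%), in early db/db (2.26%) and in the intervention library (1.08%). Its log2 ratio to control was 1.0 with intervention (0.42 to 1.60), 1.12 in late db/db (0.55 to 1.72) and 1.02 in early db/db (0.49 to 1.58). Cplx2 was lower in early db/db (1.92%), and Stx4a in the intervention library by -1.19 (-2.08 to -0.35; 1.25%). Vamp4 was lower in late than in early db/db (1.67%; none was higher, 1.12%), and no gene was past 2-fold in the intervention library against late db/db (0.762% and 1.1%).

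Some of the beta cell differences from control had the same sign in all 4 endocrine classes. Syt5 in early db/db against control gave log2 ratios of 1.60 in beta, 1.20 in alpha, 0.57 in delta and 0.97 in gamma cells. Rab3b in late db/db gave 1.54 in beta, 0.76 in alpha, 0.61 in delta and 1.12 in gamma cells. Cplx2 in early db/db gave -1.84 in beta, -1.14 in alpha, -0.78 in delta and -1.24 in gamma cells. Syt7 in early db/db gave -1.17 in beta, -0.79 in alpha, -1.44 in delta and -0.92 in gamma cells. The intervals of these ratios left out 0 in every class, and the difference between classes was not tested. Acinar markers in the alpha class summed to 992 CPM with intervention, 560.0 in late and 4897.8 in early db/db, and 182 in control. In the gamma class they summed to 294 CPM with intervention, 645 in late and 2580.0 in early db/db, and 155 in control, and stromal markers there to 22.5 CPM with intervention, 11.4 in late and 375 in early db/db, and 33.1 in control. These markers were thus highest in early db/db in each of these classes, as acinar markers were in the beta and delta classes, and their part in the Syt5, Cplx2 and Syt7 differences was not tested. Syt7 in delta cells had 173 CPM in the intervention library, 190 in late and 82.9 in early db/db, and 225 in normal control, so early db/db stood apart from the other 3 libraries. In alpha cells Syt7 had 233 CPM with intervention, 210.0 in late and 131 in early db/db, and 227 in control, again lowest in early db/db.

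Other differences were smaller outside beta cells. Ptprn in late db/db against control gave log2 ratios of 1.33 in beta, 0.42 in alpha, 0.57 in delta and 0.49 in gamma cells. Alpha cells had 284 CPM of Ptprn in the intervention library, 284 in late and 244 in early db/db, and 212 in normal control. Cadps in late db/db gave -1.67 in beta, -0.67 in alpha and -0.55 in gamma cells, and alpha cells had 106 CPM with intervention, 90 in late and 82 in early db/db, and 143 in control. Delta cells had little Cadps, at 8.43 CPM with intervention, 4.14 in late and 4.26 in early db/db, and 8.62 in control. Vamp3 in late db/db gave -1.10 in beta cells and -0.06 (-0.37 to 0.24) in alpha cells. Since each class is 1 sum per library, these differences between classes carry counting error only and were not tested.

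**Figure D3:**
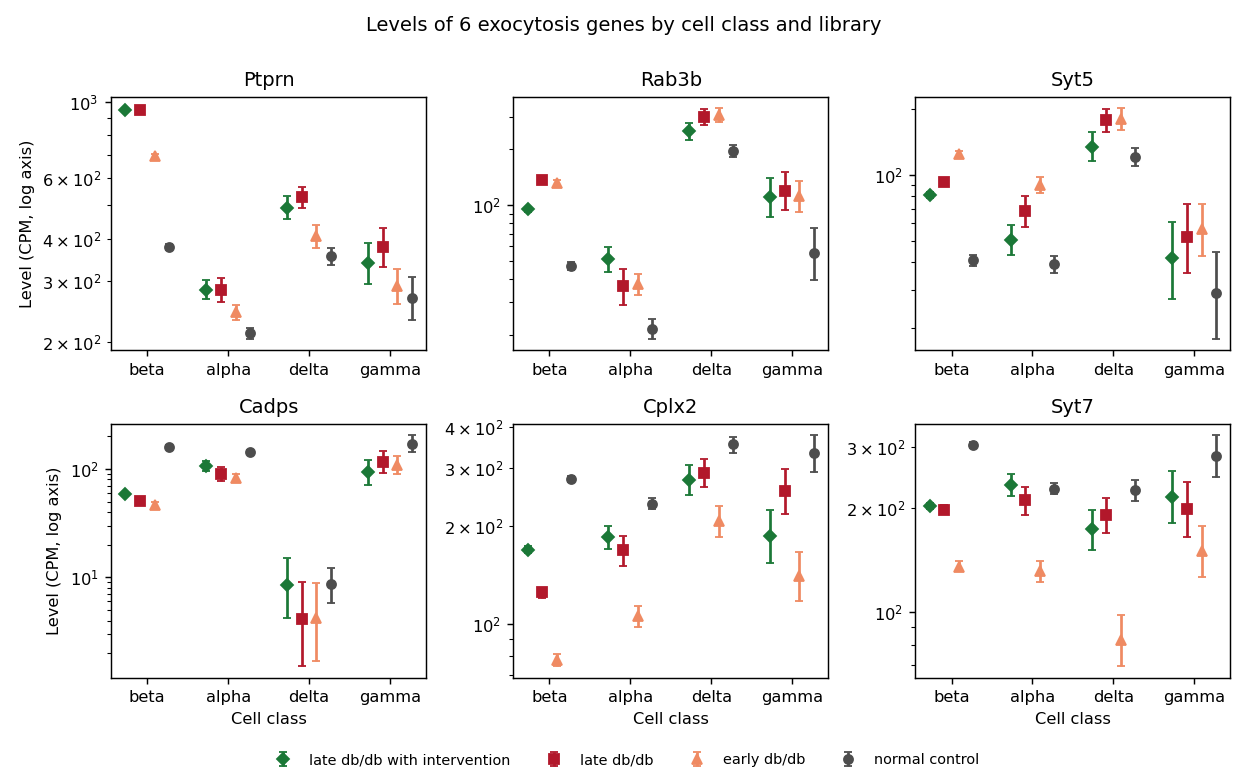
Level (CPM, log axis) of Ptprn, Rab3b, Syt5, Cadps, Cplx2 and Syt7 in beta, alpha, delta and gamma cells of the intervention (green diamonds), late db/db (red squares), early db/db (orange triangles) and normal control (grey circles) libraries, with exact Poisson 95% intervals. Early db/db is lowest for Cplx2 and Syt7 in all 4 classes, and Cadps in delta cells stays under 10 CPM.

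Within the control library, levels were compared between the beta class and the other endocrine classes, with 32 of the 35 genes measured in each comparison. Over alpha cells, 7 genes were at least 2-fold higher in beta cells and 2 lower (15.5% and 5.39% of all genes). Over delta cells 4 were higher and 4 lower (8.46% and 8.68%), and over gamma cells 5 were higher and 2 lower (13.7% and 6.17%). Some of these genes reached 10 CPM in 1 class only and passed the minimum through that class, namely 3 over alpha, 4 over delta and 3 over gamma cells. They were Sytl4, Stx1a and Stxbp5l in all 3 comparisons and Cadps over delta cells, and both genes lower over alpha and over gamma cells were among them. Nothing particular to this machinery is read from the counts. Sytl4 had 328 CPM in beta cells against 3.64 in alpha, 6.32 in delta and 4.14 in gamma cells. As these 3 levels lay below the 7.53 CPM of endothelial cells, the size of its ratios is not read. Rab3d was higher than in all 3 classes, with 193 CPM in beta cells against 33.7 in alpha, 67.2 in delta and 86.9 in gamma cells. Syt4 was likewise, with 301 CPM in beta cells against 82.0 in alpha, 99.4 in delta and 117 in gamma cells. Syt13 had 854 CPM in beta cells against 267 in alpha, 445 in delta and 411 in gamma cells, past 2-fold over alpha and gamma cells. Rab27a had 157 CPM in beta cells against 68.9 in alpha, 119 in delta and 74.5 in gamma cells, and was past 2-fold over alpha and gamma cells. Rab3a had 260.0 CPM in beta cells against 98.7 in alpha, 170.0 in delta and 160.0 in gamma cells, and was past 2-fold over alpha cells.

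Stx1a had 6.61 CPM in beta cells of the control, under the minimum, against 16.5 in alpha, 16.7 in delta and 26.2 in gamma cells. Stxbp5l, also under the minimum there, had 6.11 CPM in beta cells against 21.1 in alpha, 125 in delta and 23.5 in gamma cells. Rab3b had 47.1 CPM in beta, 21.5 in alpha, 197 in delta and 55.2 in gamma cells, and Syt5 had 40.8 in beta, 39.1 in alpha, 121 in delta and 29.0 in gamma cells, so delta cells held the most of both. Rab3b and Syt5, which were higher in beta cells of db/db than in beta cells of control, thus had their highest control level in delta cells. Cadps was at 161 CPM in beta, 143 in alpha, 8.62 in delta and 171 in gamma cells, a 4.22 log2 ratio (3.70 to 4.79) of beta over delta cells.

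**Figure D4:**
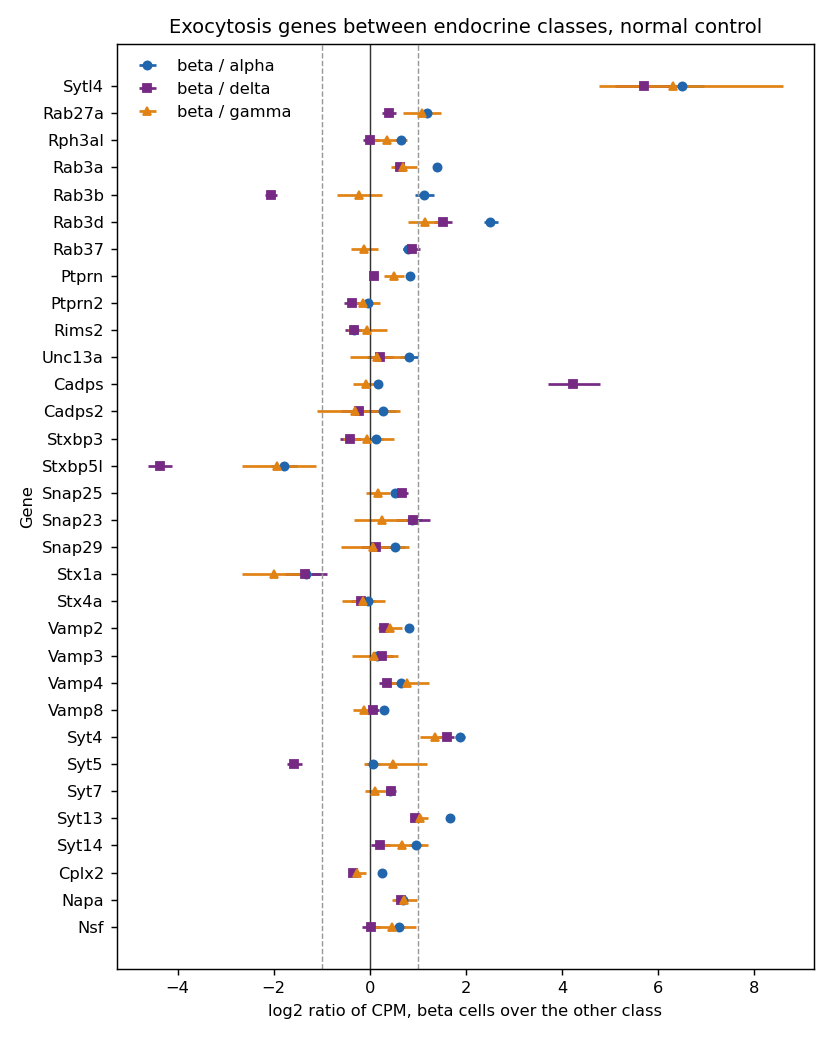
Log2 ratio of CPM of beta over alpha (blue circles), delta (purple squares) and gamma (orange triangles) cells in the normal control library for the genes measured there, with 95% counting intervals; dashed lines mark 2-fold. Sytl4 lies past 5 on all 3 ratios, over levels below that of endothelial cells. Cadps is far higher in beta than in delta cells only, and Stxbp5l, Rab3b and Syt5 lie furthest on the delta side.

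Because insulin content differed between libraries, levels were also read along the insulin share of the cell. In the intervention library Sytl4 had 41.3 CPM in cells of 10 to 20% insulin, 42.3 CPM at 20 to 30% and 56.9 CPM at 30 to 40%. The higher steps of that library had 69.6 CPM at 40 to 50%, 89.9 CPM at 50 to 60% and 120.0 CPM above 60% insulin. The lowest 2 steps overlapped within counting error, and each later step lay above the one before it. Late db/db ran between 23.8 and 33.1 CPM and early db/db between 31.0 and 42.2 CPM over the same steps, with no such order. Control cells had 174 CPM at 40 to 50%, 283 CPM at 50 to 60% and 346 CPM above 60% insulin, and its lower steps held at most 12 cells. At a matched 50 to 60% insulin, Sytl4 had 89.9 CPM in 990 cells of the intervention library, 33.1 in 171 of late db/db, 31.0 in 506 of early db/db and 283 in 527 of normal control.

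At that same step Cplx2 had 188 CPM in the intervention library, 131 in late and 79.7 in early db/db, and 334 in normal control. Cadps had 63.3 CPM with intervention, 52.4 in late and 45.5 in early db/db, and 169 in control. Ptprn had 880.0 CPM with intervention, 826 in late and 666 in early db/db, and 304 in control. For Rab3b the levels were 86.2 CPM with intervention, 117 in late and 119 in early db/db, and 65.1 in control. Control therefore stood on the same side of all 3 db/db libraries for each of these genes as in the whole beta class. Along the insulin share, Ptprn was lower at each step in the intervention library (1201.8 CPM at 10 to 20% insulin and 815 CPM above 60%) and in late db/db (1281 and 772 CPM). Rab3b did likewise, with 136 and 78.8 CPM in the intervention library and 227 and 87.9 CPM in late db/db. Cplx2 was higher at each step in the intervention library, with 129 CPM at 10 to 20% and 206 CPM above 60% insulin, and ran between 119 and 142 CPM in late db/db. Cells of one library share depth and free RNA, so these orders describe the 4 libraries only.

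**Figure D5:**
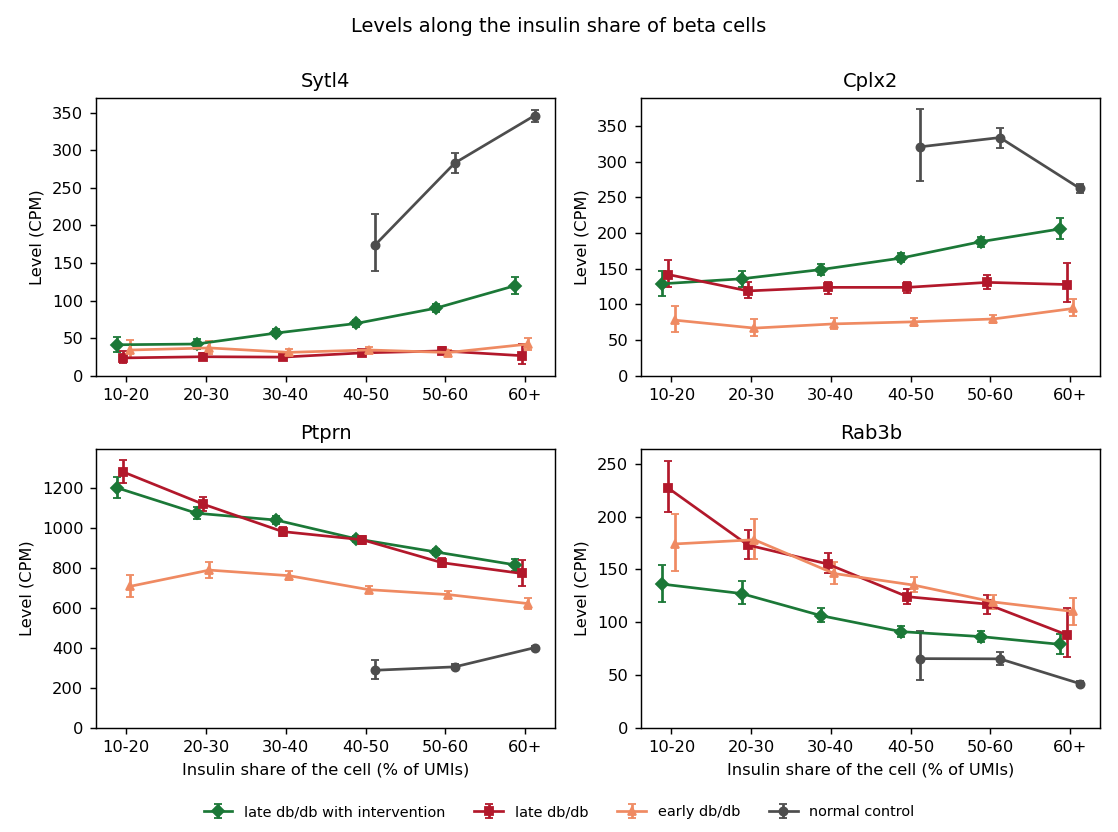
Level (CPM) of Sytl4, Cplx2, Ptprn and Rab3b in cells grouped by the insulin share of their UMIs (percent, x axis), in the intervention (green), late db/db (red), early db/db (orange) and normal control (grey) libraries, with exact Poisson 95% intervals; groups under 20 cells are not drawn. Sytl4 runs from 41.3 to 120.0 CPM in the intervention library and stays at or under 42.2 CPM in late and early db/db.

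Of 85 further genes of the pathway, chosen by name, 54 were measured in beta cells of late db/db and normal control, 3 of them at least 2-fold higher and 10 lower (4.19% and 12.9% of all genes), with a median log2 ratio of -0.31 (-0.39 over all genes). Of the 54, 7 reached the minimum level in 1 of the libraries only. Rims3, an active zone scaffold related to Rims2, had 39.0 CPM in the intervention library, 16.7 in late and 22.5 in early db/db, and 109 in normal control. It was the 1 gene of 52 of this list measured and past 2-fold in the intervention library against late db/db (log2 1.23, 1.07 to 1.38; 1.23% of all genes higher and 0.706% lower), and its log2 ratio to control was -2.71 (-2.86 to -2.57) in late db/db. Control was highest, the intervention library next, and early and late db/db lowest. Pclo, a large active zone protein, had 229 CPM with intervention, 153 in late and 114 in early db/db, and 395 in control. Mlph, another Rab27 effector, had 4.11 CPM with intervention, 0.857 in late and 2.33 in early db/db, and 10.4 in control.

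The Rab3 exchange factor Madd had 114 CPM in the intervention library, 101 in late and 80.8 in early db/db, and 260.0 in normal control (log2 ratio of late db/db to control -1.37). Syt11 (-1.49), Sv2a (-1.20), Erc2 (-1.15), Stxbp4 (-1.01) and Erc1 (-1.0) were also among the lower genes in late db/db. The 3 higher genes were Sv2c, a granule membrane glycoprotein (22.0 CPM with intervention, 21.1 in late and 20.2 in early db/db, and 2.87 in control; log2 2.88), Syt9, a fast calcium sensor of beta cell granules (24.9 CPM with intervention, 22.7 in late and 18.0 in early db/db, and 7.99 in control; log2 1.51), and Rabac1, which binds prenylated Rabs (1.17). Sv2c and Syt9 were below the minimum level in control, and Mlph and Stxbp4 in late db/db.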

How the data were processed

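UMI counts per gene and cell barcode were deposited by the authors as 1 matrix per library, made with Cell Ranger 3.0.0 per the file headers. The submitters' processing notes name mm10, CASAVA 1.8, Cell Ranger and Seurat, and for the gene annotation a release was not given in the sources used here. No barcode in the matrices had under 500 UMIs. Each sample label gave 1 library and 1 group.

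Barcodes were used from 1000 UMIs and 500 genes upward and with mitochondrial UMIs up to 20%. The cells with the highest Scrublet scores (scanpy 1.11.5) were removed as doublets at 0.8% per 1000 cells, that is 209 in the intervention library, 318 in late and 184 in early db/db, and 171 in normal control. Endocrine cells had at least 5000 UMIs. Beta cells had at least 20% of UMIs from Ins1 and Ins2 and under 2% from each of Gcg, Sst and Ppy. Alpha, delta and gamma cells had under 20% insulin and at least 2% of their hormone, at least 2 times the next. Cells of mixed hormones (94 with intervention, 48 in late and 144 in early db/db, and 154 in control) were left out. Endothelial cells and macrophages are cells of no hormone class with at least 3 markers of that list and 2 more than of any other.

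UMIs were summed per class and library and divided by the sum outside mitochondrial genes and 7 hormone genes (Gcg, Iapp, Ins1, Ins2, Ppy, Pyy, Sst), as CPM. Ratios carry exact conditional binomial intervals, levels exact Poisson intervals and shares exact Clopper-Pearson intervals, all at 95% and for counting error only. Levels were not divided by gene length, and each level was compared only with levels of the same gene. Computations used Python 3.11.15, numpy 2.4.6, scipy 1.17.1 and, for TMM scaling, edgeR 4.0.16 in R 4.3.3. The calculation of ratios was checked on simulated Poisson counts with known fold changes. As these hold no variation between libraries, they say nothing about that source of error.

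The genes and lists were chosen with earlier results of these data known. Values in all 4 libraries are given for genes at least 2-fold apart in a beta cell comparison or between beta and another endocrine class in normal control, and others are given by their levels or range. Of the 85 further genes, those at least 2-fold apart in late db/db against control or in the intervention library against late db/db are named. Of the 35 genes, 3 overlap another gene on the same strand (Rab26, Cadps2 and Vamp3), and 13 overlap a gene on the other strand. Promoter windows are from RefSeq on GRCm38.p6. One gene of the wider pathway list, included in its counts, is not reported here.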

Additional observations from a re-analysis of the deposited data

How the results depend on the processing

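Each choice was changed in turn: the denominator, the scaling, the minimum level, the depth and hormone limits of the classes, doublet removal, the weight of cells and the subtraction of free RNA. The 2 further settings, beta cells of 20000 to 60000 UMIs and beta cells of 40 to 60% insulin, were chosen after seeing the data. No ratio called at 2-fold changed sign. All calls for Sytl4 and Cadps stayed past 2-fold in every setting, as did Ptprn and Syt5 in late db/db, Syt5 and Cplx2 in early db/db and Ptprn in the intervention library, each against control. Of the calls against control, 2 of 3 higher and 2 of 4 lower held in every setting in late db/db, 1 of 2 and 3 of 8 in early db/db, and 1 of 2 and 2 of 4 in the intervention library.

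The share of all genes called the same way is in brackets. In beta cells against control, all UMIs as denominator gave 3 higher (8.42%) and 2 lower genes (2.47%) in the intervention library, 4 higher (12.8%) and 2 lower (2.83%) in late db/db, and 4 higher (11.1%) and 3 lower (6.36%) in early db/db. TMM scaling gave 3 higher (6.48%) and 2 lower (3.92%) in the intervention library, 3 higher (7.09%) and 2 lower (5.95%) in late db/db, and 4 higher (8.88%) and 4 lower (8.41%) in early db/db. In alpha cells of late db/db 1 gene was higher with TMM (1.89%) and after subtracting free RNA (1.59%). With hormone limits of 30% and 5% (3.92%), or each cell weighted equally (4.47%), 1 gene was higher in beta cells of the intervention library. With no minimum level the intervention library against late db/db had 2 higher genes in beta (14.0%), 3 in alpha (16%) and 5 in delta cells (12.6%). Against control it then had 3 higher (11.4%) and 1 lower (15.3%) in alpha and 3 higher (10.6%) and 1 lower (15.4%) in delta cells, and late db/db had 1 lower in alpha (19.9%) and 4 lower in delta cells (16.1%). The causes were not tested.

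No paired analysis was possible because each group is 1 library, and no library was left out for that reason. Depth limits the genes under the minimum level and the gamma class, of which late db/db held 44 cells.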

Other observations

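Endothelial cells and macrophages, which have no hormone granules, held the widely expressed members of the fusion machinery and little of the endocrine ones. Vamp8, used in the granules of many blood cells, had 266 CPM in macrophages of the intervention library, 542 in late and 394 in early db/db, and 315 in normal control. In endothelial cells Vamp3 had 156 CPM with intervention, 103 in late and 124 in early db/db, and 154 in control. Stx4a there had 56.8 CPM with intervention, 74.0 in late and 73.7 in early db/db, and 86.6 in control. Snap23 in endothelial cells had 63.5 CPM with intervention, 81.2 in late and 53.3 in early db/db, and 53.8 in control. In macrophages it had 59.1 CPM with intervention, 97.6 in late and 99.4 in early db/db, and 100 in control.

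Its endocrine relative Snap25 in endothelial cells had 16.7 CPM with intervention, 0.903 in late and 0.73 in early db/db, and 4.3 in control, on 15 UMIs with intervention, 1 in late and 1 in early db/db, and 8 in control. Ptprn had 35.6 CPM with intervention, 4.51 in late and 5.84 in early db/db, and 4.3 in control there. Syt13 had 26.7 CPM with intervention, 3.61 in late and 0.73 in early db/db, and 11.8 in control. All 3 endocrine genes were highest in endothelial cells of the intervention library. It was also the library with the highest median insulin share in cells of no hormone class, 5.95% against 0.791% in late and 0.318% in early db/db, and 2.67% in normal control. The part of free RNA in these levels was not tested.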
